A study of Mus musculus with 2 samples.

Results

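Counts in single mouse induced macrophages were examined for 6 transcripts, Gm42418, AY036118, Gm26917, Lars2, Camk1d and Cmss1. They were chosen by symbol from the 20034 genes of 1 matrix, and all 6 had a row. The choice was made with earlier results on these cells known, in which Gm42418 stood high, so the levels below are a description and carry no test. The cells (iMac) are wild type mouse cells that, by the series title, arose from fibroblasts through c-Myc. They were detached with EDTA in PBS and loaded on a droplet system (DNBelab C4). The labels name a cDNA library and an oligo library of the same cells, but no barcode name points to either one. The 6837 barcodes therefore count as 1 sample with no replicate, and no p-value was computed. Neither the starting fibroblasts nor cells without c-Myc were analysed here.

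Ribosomal RNA is made in the nucleolus by RNA polymerase I as a long precursor that is cut into the mature 18S, 5.8S and 28S molecules, with external and internal spacers removed. It is the bulk of a cell's RNA but normally lacks a poly(A) tail, so libraries primed with oligo(dT) are meant to pass over it. Gene annotations of the mouse nevertheless contain noncoding transcripts at copies of the ribosomal repeat, and their counts are often read as a sign of ribosomal RNA in a library. The remaining 3 are protein-coding genes. Lars2 encodes the leucyl-tRNA synthetase of mitochondria, Camk1d a calcium/calmodulin-dependent protein kinase, and Cmss1 a protein linked to the small ribosomal subunit.

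The noncoding trio lies together on chromosome 17 of GRCm38 (coordinates from GENCODE M21). Gm26917 (ENSMUSG00000097971.3, 39843013 to 39846341, plus strand) ends 616 bases before Gm42418 (ENSMUSG00000098178.1, 39846958 to 39848788, plus strand) begins. AY036118 (ENSMUSG00000105361.1, 39847113 to 39848035) lies on the minus strand inside Gm42418, and all 923 of its bases are the reverse complement of Gm42418 sequence. A minus-strand gene with a transcript that M21 types as rRNA, CT010467.1 (39846353 to 39848827), covers all 1831 bases of Gm42418. Its lower coordinate lies just past the end of Gm26917. The rRNA transcript matches bases 1 to 1244 of Gm42418, and bases 1146 to 1831 match another transcript of CT010467.1 that M21 types as a pseudogene. The following windows from M21 transcripts, each 60 bases long and written 5′ to 3′, show that the same interval was annotated on both strands and that the longest run of A in Gm42418 is short. Capitals mark the longest A run of Gm42418 and of Gm26917, and in AY036118 the T run opposite that of Gm42418.
Gm42418 (chr17:39847141-39847200, plus strand): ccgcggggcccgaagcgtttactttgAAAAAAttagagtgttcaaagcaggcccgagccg
AY036118 (chr17:39847141-39847200, minus strand): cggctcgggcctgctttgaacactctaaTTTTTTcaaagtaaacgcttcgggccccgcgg
Gm26917 (chr17:39845110-39845169, plus strand): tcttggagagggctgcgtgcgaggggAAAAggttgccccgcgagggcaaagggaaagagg

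Whether the authors counted by strand is not given in the sources used here, so reads of Gm42418 and AY036118 cannot be told apart in their shared interval. The longest A runs were 6 bases in Gm42418, 4 in AY036118, 4 in Gm26917, 6 in Lars2, 13 in Camk1d and 4 in Cmss1, each in the gene's longest transcript. A run of 8 A (AAAAAAAA, searched on the transcript's own strand) was held by the longest transcript of Camk1d and by none of the other 5 transcripts. Of the 1679 genes whose longest transcript was at least as long as that of Camk1d, 60.9% held it in a 3′ stretch of that length. At the lengths of the others this share was 26.0% for Gm42418, 15.3% for AY036118, 39.6% for Gm26917, 44.2% for Lars2 and 18.3% for Cmss1. Most genes compared at those lengths lacked the run too, so its absence is not a trait of these 5.

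The label of ribosomal RNA was checked against sequence. Transcripts that M21 types as rRNA matched Gm42418 and AY036118 at 90% identity or more over at least 100 bases, and none of the other 4 members. AY036118 matched on the strand of the rRNA transcript and Gm42418 on the opposite strand. Over all 54986 genes compared, 9 (0.0164%) had such a match. Only annotated transcripts were searched, so the introns of Lars2, Camk1d and Cmss1 and the 28S RNA were not analysed here. For those 3 genes and Gm26917 the search gave no match to annotated rRNA at these limits. Whether those 3 genes and Gm26917 hold sequence like the 28S RNA was not tested. The 6 are called by their symbols below.

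A short match with an antisense gene was picked out for Lars2 after the search had been seen, among several of its transcripts with other genes. Ribosomal RNA outside the sequences searched was not compared with this stretch. Bases 3278 to 3349 of the longest Lars2 transcript, in its 3′ UTR (chr9:123462048-123462119), matched the antisense gene Gm15564 over 72 bases with 1 mismatch. The 30 bases around the mismatch are shown because they are where the pair of transcripts meets, with the base that differs in capitals.
Lars2: ggaacgtgagctgggAttagaccgtcgtga
Gm15564: ggaacgtgagctgggTttagaccgtcgtga
Gm15564 itself had 554 counts in all, against 79372 of Lars2.

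The matrix held 1001 to 192369 counts per barcode with a median of 16743, a median of 3112 genes and a median of 0.572% of counts from mitochondrially encoded genes. Macrophage identity was checked with 8 markers, all of which reached 10 counts per 1000000 (CPM). Of 7 fibroblast markers, only Pdgfra had a row, with 1 count. Among neutrophil markers Prtn3 stood at 96.2 CPM, Elane stood at 0.436 CPM and Mpo was without a row.

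The 6 transcripts took 6.86% of all counts, which is 11021250 counts. Gm42418 alone took 5.71% (95% Poisson interval 5.71 to 5.71) and ranked 1 of all genes. AY036118 took 0.758%, Cmss1 0.287%, Camk1d 0.0515%, Lars2 0.0494% and Gm26917 0.00651%. Per kilobase of annotated exon the order was the same, with 31183 CPM for Gm42418, 8215 for AY036118, 1437 for Cmss1, 69.3 for Camk1d, 44.6 for Lars2 and 19.6 for Gm26917. For Cmss1 and Camk1d the exons are 0.655% and 1.76% of the gene, and whether intronic reads were counted is not given in the sources used here. All of these differences were larger than counting error, the only error that 1 sample allows.

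Gm42418 was found in every barcode. Its share per barcode had a median of 4.65%, a 95th percentile of 18.3% and a highest value of 84.7%. AY036118 was missing from 1 barcode, and its share had a median of 0.704% and a highest value of 9.70%. Cmss1 had a median share of 0.211% and a highest of 12.5%, with a count in 97.7% of barcodes. Both remaining protein-coding genes were sparser. Lars2 had a median share of 0.0424% and a highest of 2.07%, with a count in 90.01% of barcodes. Camk1d had a median of 0.0289% and a highest of 21.5%, with a count in 83.4% of barcodes. Gm26917 differed in kind: only 35.7% of barcodes had a count, so its median was 0, yet its highest share was 18.5%. Such shares of barcodes depend on depth. When each of the 6126 barcodes with enough counts was thinned to 1900, and 711 shallower ones were left out, Gm26917 had a count in 6.33% of barcodes (38.5% of the same barcodes unthinned), Camk1d in 47.3% (88.8%), Lars2 in 57.7% (94.96%) and Cmss1 in 92.9% (99.2%).

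Shares were uneven over barcodes. The summed share had a median of 5.71%, a 5th percentile of 1.64% and a highest value of 89.1%. It was over 20% in 365 barcodes and over 50% in 61. The 365 had a median depth of 5663 counts and 1388 genes, and they contributed 8.55% of the transcripts' counts with 1.93% of all counts.

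Relation to depth was examined with levels as counts per 1000000 counts outside the 6 transcripts (CPM of other counts), so that a high Gm42418 did not lower its companions. Depth was counted without them as well. The shallowest 20% of barcodes were set against the deepest 20%. Pooled levels of all 6 were higher in the shallow group. Gm42418 stood at 116011 CPM of other counts in the shallowest and 55705 in the deepest group, a log2 difference of 1.06. Gm26917 differed most of the 6, with 1275 against 56.9 (4.49 on the log2 scale). The log2 difference was 2.20 for Camk1d, 1.48 for Lars2, 1.19 for Cmss1 and 0.55 for AY036118. A 2-fold higher level was reached by 5 of the 6 transcripts, and by 0.841% of the 6658 genes at 10 CPM or more. A 2-fold lower level was reached by 0 of the 6 and by 0.03% of genes. The median log2 difference over those genes was 0.08, and Gm26917 ranked 1 and Camk1d 4 among them.

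The summed log2 difference of 1.04 fell below 2-fold when barcodes under 500 genes or over 15% mitochondrial counts were left out (0.72), in barcodes of 5000 counts or more (0.84) and with all counts in the denominator (0.32). Camk1d and Gm26917 were at 1.19 or more under these 3 settings, and Gm42418 and Cmss1 below 1. Without the 365 barcodes over 20%, a choice that was made after seeing the data and that removes barcodes by the measured share itself and so lowers the parts that hold most of them, the summed difference went to -0.32. Gm42418 went to -0.37, Cmss1 to -0.12, Camk1d to -0.08, AY036118 to -0.16 and Lars2 to 0.15. Gm26917 was higher in the shallow group at 2.08. The number of barcodes over 20% was 103 in the shallowest of 10 equal parts of the barcodes, 48 in the fourth, 19 in the sixth and 0 in the deepest. In the median barcode Gm42418 was not highest at the lowest depth. It stood at 37717 CPM of other counts in the shallowest of the 10 parts, 63263 in the fourth, 46840 in the ninth and 52057 in the deepest. Spearman's rho of Gm42418 with depth was 0.046 over all barcodes. It was -0.13 under 3000 other counts, 0.12 from 3000 to below 10000, -0.15 from there to below 30000 and 0.10 at 30000 or more. It also differed by the number at the end of the barcode name, described further on, with 0.06 at number 1 and -0.24 at 2 or more. Within number 2 the median barcode went from 7.48% of other counts in the shallowest of the 10 parts to 4.60% in the deepest, and within number 4 from 16.5% to 6.41%.

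**Figure D1:**
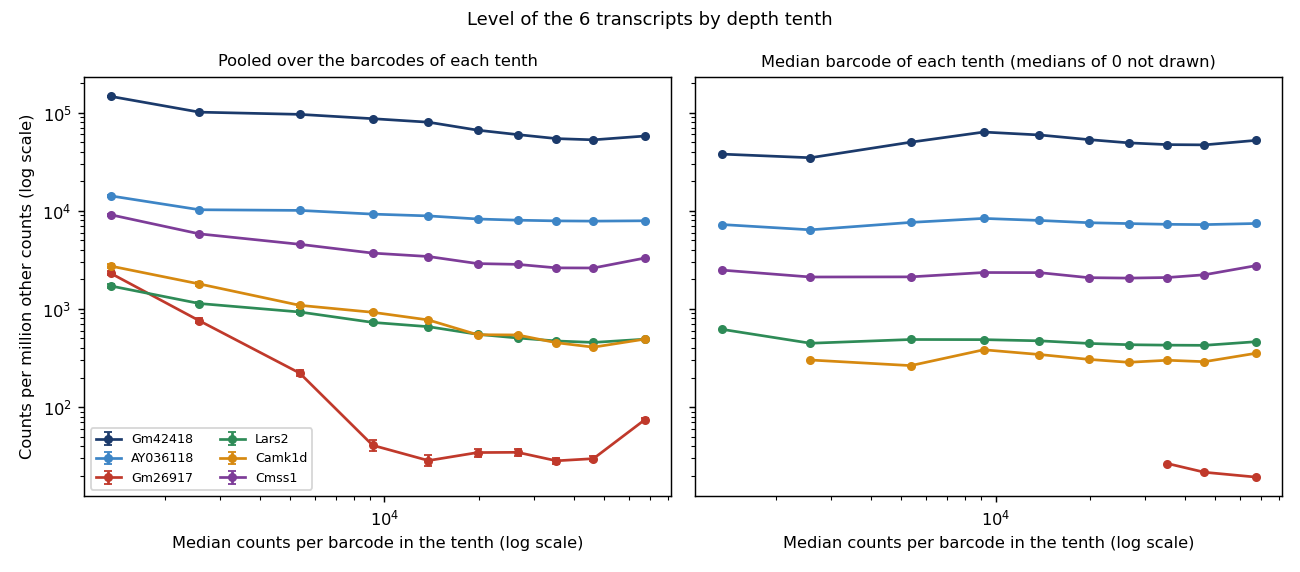
Level of each transcript against depth in 10 equal parts of the 6837 barcodes, with depth ordered without the 6 transcripts and bars for 95% Poisson intervals, in CPM of other counts on log scales. The left panel pools the barcodes of each part and the right panel gives the median barcode. The pooled level of Gm42418 falls from 145922 CPM of other counts in the shallowest part to 57615 in the deepest, whereas its median barcode stands at 37717 and 52057 in the same parts, and Gm26917 falls from 2300 to 74.3.

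Gm26917 had a depth profile of its own. Its pooled level was 2300 CPM of other counts in the shallowest of the 10 parts, 28.5 in the fifth, 29.9 in the ninth and 74.3 in the deepest. Per 100 counts of Gm42418 the 10 parts held 0.0358 to 1.58 counts of Gm26917, a 44.0-fold range. The same ratio ranged from 9.70 to 14.9 for AY036118, from 4.28 to 6.23 for Cmss1, from 0.827 to 1.17 for Lars2 and from 0.773 to 1.87 for Camk1d. AY036118, Cmss1 and Lars2 therefore kept their proportion to Gm42418 within 1.53-fold over depth, and Camk1d within 2.42-fold.

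Over barcodes the transcripts rose and fell together, Gm26917 excepted. Spearman's rho with Gm42418 was 0.84 for AY036118, 0.75 for Cmss1, 0.65 for Camk1d and 0.55 for Lars2 (n = 6837 barcodes), and 0.13 for Gm26917. The barcodes share 1 library, and counts near 0 in shallow barcodes limit these values. In the 1937 barcodes with 30000 or more other counts, rho with Gm42418 was 0.87 for AY036118, 0.74 for Cmss1, 0.67 for Camk1d and 0.60 for Lars2, and Gm26917 was at -0.00. In the 1254 barcodes under 3000 other counts, Gm26917 reached 0.36 with Gm42418. AY036118 lies in the same interval as Gm42418, so the relation of that pair is not independent of shared reads. Camk1d and Lars2 are on chromosomes 2 and 9 and share no annotated sequence with it at the limits above.

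**Figure D2:**
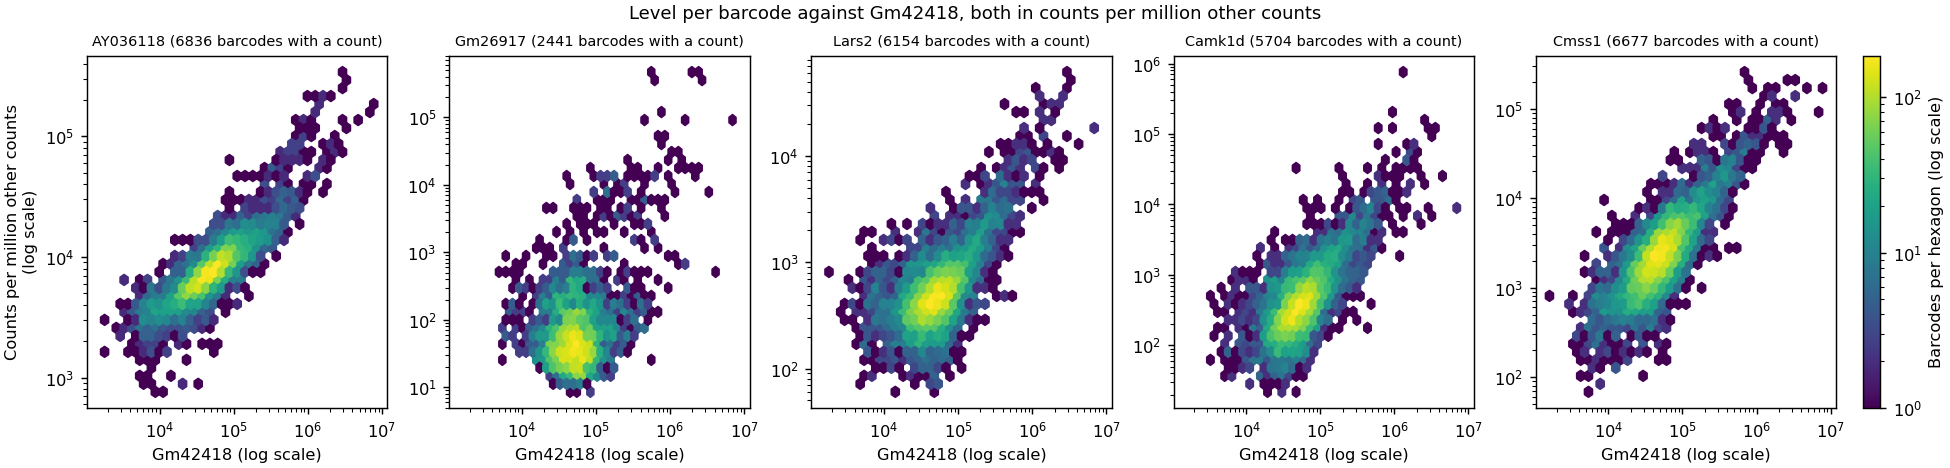
Level of each of 5 transcripts against Gm42418 per barcode, both in CPM of other counts on log scales, for barcodes with a count of the transcript on the vertical axis. AY036118, Lars2, Camk1d and Cmss1 form bands that rise with Gm42418, whereas most of the 2441 barcodes with Gm26917 form a cloud with no slope and a minority at high Gm26917.

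The nearest genes were sought by Pearson's r of log1p counts per 10000 other counts, over the 5220 barcodes with at least 5000 counts and 5974 genes. Nearest to Gm42418 were AY036118 (r = 0.87), Cmss1 (0.80), Gphn (0.74), Camk1d (0.73) and Lars2 (0.69), followed by Cdk8 (0.68) and Jarid2 (0.66). Outside the 6, Gphn, which encodes the scaffold protein gephyrin, came first for AY036118, Lars2 (0.70), Camk1d (0.72) and Cmss1 (0.70) as well. Jarid2, a cofactor of the Polycomb complex, and Cdk8, the kinase of Mediator, followed for AY036118 and Lars2. For Camk1d the next were Jarid2 (0.67) and Tmtc2 (0.64), and for Cmss1 Gm19951 (0.65) and Jarid2 (0.65). Filip1l lies wholly inside Cmss1 on the other strand. Its r with Cmss1 was 0.63, and without stated strand the reads of this pair cannot be told apart.

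Several of these neighbours span long stretches of genome. The annotated span was 458 kb for Gphn, 387 kb for Tmtc2, 192 kb for Jarid2 and 71.6 kb for Cdk8. It was longer still for Fgfr2 (2961 kb) and Wwox (913 kb), neighbours of Gm26917. Among the 6 it was 421 kb for Camk1d, 305 kb for Cmss1 and 95.7 kb for Lars2. The median of 6553 protein-coding genes at 10 CPM or more was 22.2 kb and their 90th percentile 102 kb. Gm19951, at 4.13 kb, was short, as was Malat1, the gene nearest to Gm26917, at 6.98 kb. The part of gene length in these correlations was not tested.

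Gm26917 had other neighbours. Its nearest gene was Malat1, an abundant long noncoding RNA retained in the nucleus (r = 0.56), followed by Fgfr2 (0.40), a growth factor receptor, and Wwox (0.37). Malat1 was only 0.06 with Gm42418. In Spearman's rho, Gm26917 and Malat1 reached 0.55 under 3000 other counts, 0.34 from 3000 to below 10000, 0.20 from there to below 30000 and 0.36 at 30000 or more.

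**Figure D3:**
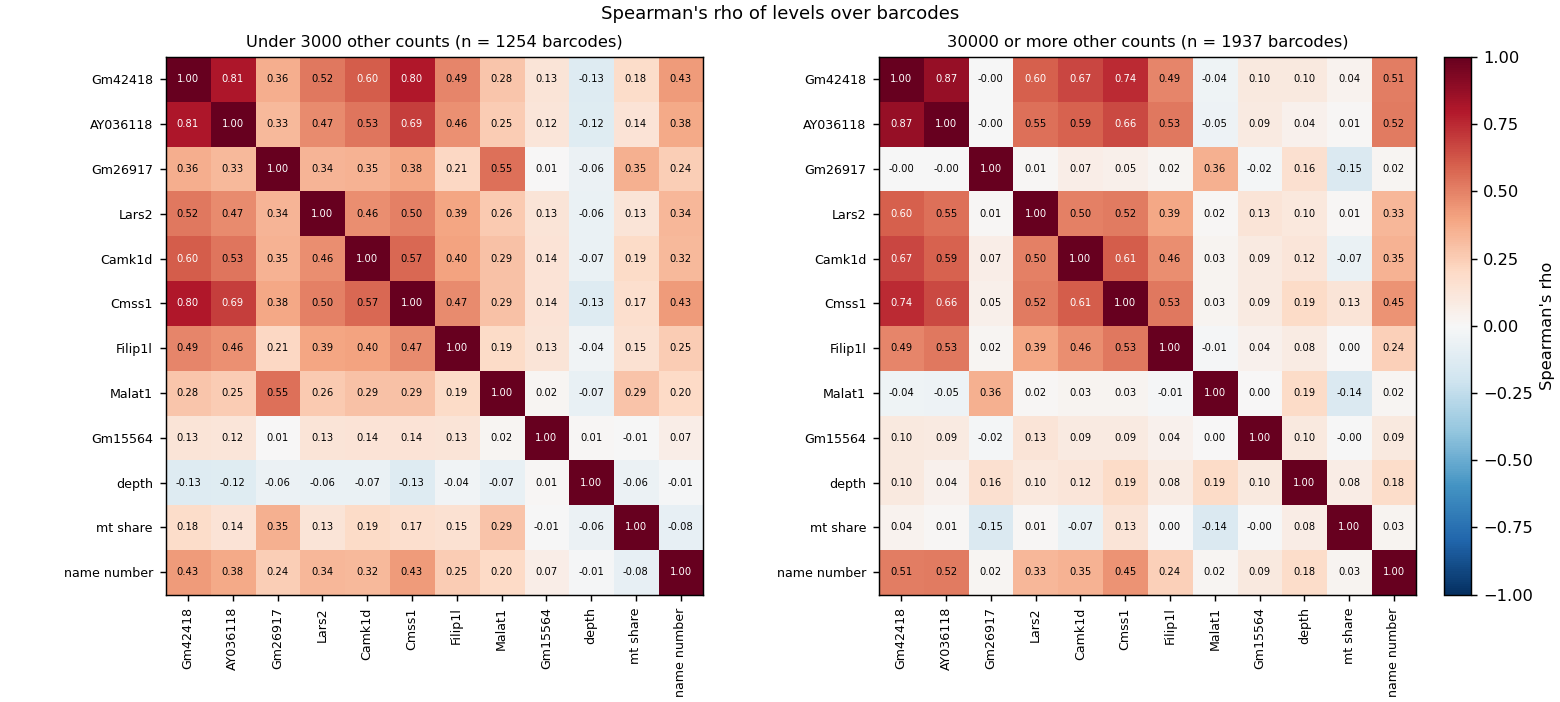
Spearman's rho between levels over barcodes, for 1254 barcodes under 3000 other counts and 1937 with 30000 or more, with depth, mitochondrial share and the number in the barcode name added. Gm42418, AY036118, Lars2, Camk1d and Cmss1 form a block in both panels, and Gm26917 is at -0.00 with Gm42418 in the deeper one but at 0.36 with Malat1.

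The barcodes at the extreme did not divide in the same way. The 68 barcodes with the highest Gm26917 held 30.8% of its counts with 0.116% of all counts, had a median depth of 1965.5, and 67 of them had a count of Malat1. Of the 68 with the highest Lars2, 43 (63.2%) were among the 68 with the highest Camk1d. Gm42418 shared 35 with Camk1d, 35 with Lars2, 34 with Cmss1, 25 with AY036118 and 14 with Gm26917. AY036118 shared 26 with Gm26917, 23 with Cmss1, 14 with Lars2 and 11 with Camk1d, and 52 of its 68 had a count of Malat1.

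Mitochondrial share was compared between 2 equal groups of barcodes, higher and lower, cut within 20 depth bins so that depth was equal. The summed level differed by -0.10 on the log2 scale, higher minus lower group, and Gm42418 by -0.11, AY036118 by -0.00, Cmss1 by 0.02 and Lars2 by -0.17. Camk1d was lower with more mitochondrial counts, at 457 against 648 CPM of other counts (-0.50, rank 6648 of 6658 genes). Gm26917 was higher, at 85.9 against 54.0 (0.67). A difference of 0.3 or more was reached upward by 1 of the 6 and by 3.42% of genes, and downward by 1 of the 6 and by 1.56%. The value of Gm26917 came from shallow barcodes. In the shallowest of the 10 parts it stood at 4610 against 56.4, whereas in the deepest it was 45.8 against 102, and over barcodes with at least 5000 counts its log2 difference was -0.21. The values of the others over all depths combine differences of opposite sign. The summed level differed by 1.14 on the log2 scale in the shallowest part, 0.51 in the second, -0.51 in the fourth and 0.14 in the deepest. Gm42418 went from 1.12 through -0.54 to 0.16 in the shallowest, the fourth and the deepest part, Cmss1 from 1.16 through -0.66 to 0.24, and Lars2 from 0.82 through -0.80 to 0.12. Camk1d went from 1.23 through -1.61 to 0.00, and AY036118 from 1.01 through -0.11 to 0.0386. In barcodes thinned to 1900 counts Camk1d differed by -0.27, under the limit of 0.3.

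Barcodes rich in mitochondrial counts formed a small group with high Gm42418. In the 50 barcodes over 15%, whose median depth was 2699.5, the summed share had a median of 30.5%, against 5.68% in the other 6787. Gm42418 stood at 435129 against 61009 CPM of other counts. Of the 68 barcodes with the highest Gm42418, 5 were over 15%, and their median mitochondrial share was 0.374%. Of the 68 with the highest AY036118, 26 were over 15%. The 68 with the highest Camk1d included 0 such barcodes, and their median mitochondrial share was 0.191%. These mitochondrial shares are of all counts, so a high level of the 6 transcripts itself lowers them. Shares of other counts were not computed for these sets, so the values cannot rank them against the remaining barcodes.

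Barcode names end in a number from 1 to 9 whose meaning is not given in the sources used here, and this number moved with the transcripts. It was 1 in 3252 barcodes (47.6%), with a median summed share of 4.56%. The median was 5.68% at number 2 (1420 barcodes), 6.67% at 3 (1089), 7.85% at 4 (619) and 8.42% at 5 (278). With the mean taken over 20 depth bins of equal weight, Gm42418 stood at 131192 CPM of other counts in barcodes with 2 or more and at 52724 in those with 1. On the log2 scale the difference was 1.32 for Gm42418, 2.16 for Camk1d, 2.03 for Gm26917, 1.42 for Cmss1, 1.31 for Lars2 and 0.74 for AY036118. All 6 were higher by 0.3 or more, as were 12% of the 6658 genes, and 0 were lower by as much, against 2.93% of genes. Camk1d ranked 2 and Gm26917 3 of these genes. Of the 365 barcodes with a summed share over 20%, 25.8% had number 1. The part of this number in the relations to depth and among the transcripts was not tested. Within it, rho of Gm42418 with AY036118 was 0.82 at number 1 and 0.84 at 2 or more, with Camk1d 0.55 and 0.69, and with Lars2 0.43 and 0.62.

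**Figure D4:**
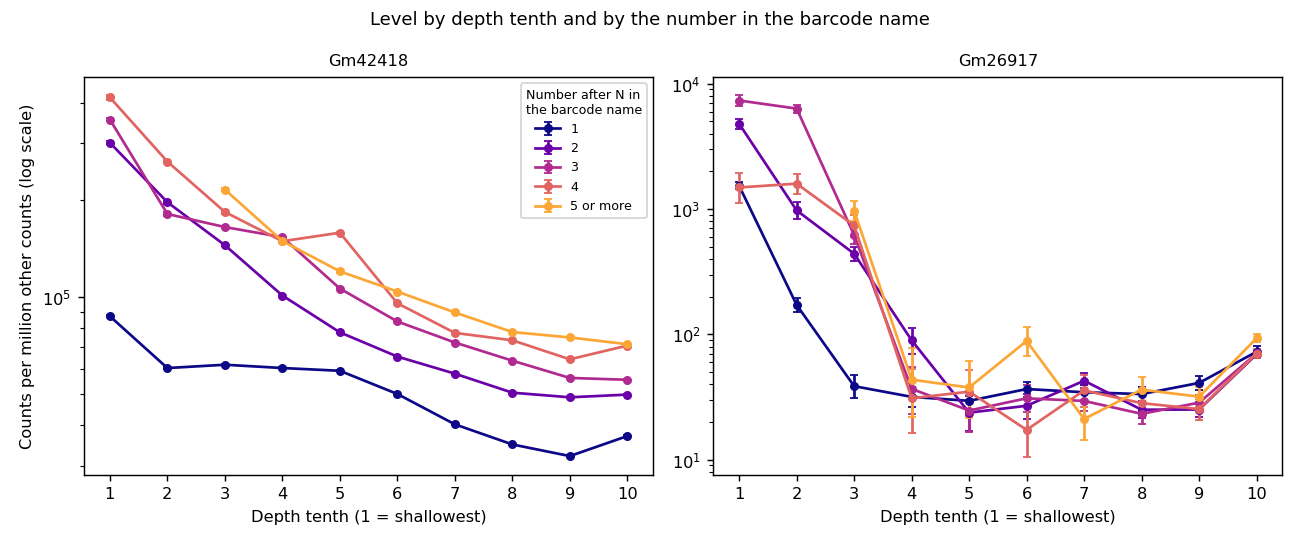
Pooled level of Gm42418 and Gm26917, in CPM of other counts on a log scale, against depth in 10 equal parts of the barcodes, by the number in the barcode name, with bars for 95% Poisson intervals and parts under 20 barcodes not drawn. Barcodes with number 1 lie below the others for Gm42418 at each depth (8.72% of other counts against 30.1% at number 2 in the shallowest part), whereas for Gm26917 the numbers are not in order in the shallowest 2 parts, nor from the fourth part on.

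Other genes of the same families were examined from lists. Of 8 other mitochondrial aminoacyl-tRNA synthetases at 10 CPM or more, 0 were 2-fold higher in the shallowest 20% of barcodes (median log2 difference 0.26), where the share over all genes was 0.841%. Other calmodulin-dependent kinases were few, with Camk1 at 138 CPM and Camkk2 at 50.4 CPM, and 0 of 2 reached 2-fold. Of 17 genes of RNA polymerase I and its factors, 35 of rRNA processing and 14 of the exosome and rRNA decay, 0 reached 2-fold in either direction, and their median log2 differences were -0.02, 0.07 and 0.19. At that share over all genes, counts of 0 in lists of these sizes are not a result about the lists. The list of nuclear long noncoding RNAs named 12 genes, of which 9 had a row and 3 reached 10 CPM. By comparison, these 3 were at least 2-fold higher in the shallow barcodes, namely Neat1 (2.76 on the log2 scale), Malat1 (1.79) and, at the limit, Gm47283 (1.001). The rest of the list was not compared by depth. Whether the differences stay without the 365 barcodes over 20% was not tested. Malat1 was also higher in the 365 barcodes over 20%, at 1053 CPM of other counts against 216 in the rest.

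Finally, barcodes were cut into 2 groups of equal size and depth by the level of each of 11 gene lists. Barcodes with equal levels, such as those without a count, were ordered by their place in the matrix. A count was held by 66.5% of barcodes for nuclear long noncoding RNA, 78.0% for mitochondrial aminoacyl-tRNA synthetases and 79.2% for calmodulin-dependent kinases. The cut is therefore partly arbitrary for these lists. The summed level of the 6 differed by 0.3 or more on the log2 scale for 0 of the 11. It did so for 1 list with all counts in the denominator and for 2 when thinned. Single transcripts did differ. Gm26917 was higher with more nuclear long noncoding RNA, at 119 against 20.2 CPM of other counts (log2 difference 2.56, where 14.6% of genes were higher by 0.3 or more). Malat1, the gene nearest to Gm26917 above, held 34060 of the 53488 counts of that list, so this value is not independent of their correlation. Gm26917 was also higher with more transcripts of G2 and M phase, at 102 against 37.1 (1.46, where 27.8% of genes were higher). It was lower with more macrophage transcripts, at 38.7 against 101 (-1.38, where 23.4% of genes were lower). Camk1d was higher with more early response and heat shock transcripts, at 642 against 463 (0.47, where 15.3% of genes were higher), as was Cmss1 (0.31). With all counts in the denominator both were under 0.3, at 0.12 for Camk1d and 0.0753 for Cmss1. Camk1d also differed by 0.30 with rRNA processing, where 35% of genes were higher, but by 0.0427 with all counts in the denominator and 0.0426 when thinned. With S phase, Camk1d was higher by 0.31 (7.01% of genes higher) and Gm26917 differed by -0.56 (5.77% of genes lower). The value of Camk1d was 0.0589 with all counts in the denominator and 0.19 at name number 1, and that of Gm26917 turned to 0.25 when thinned. With other mitochondrial aminoacyl-tRNA synthetases Gm26917 was higher by 0.87 (13.9% of genes higher). In barcodes with at least 5000 counts the values of Gm26917 were 2.01 for nuclear long noncoding RNA, 1.59 for G2 and M phase and -0.60 for macrophage transcripts. Without the 365 barcodes over 20%, Cmss1 with early response differed by 0.26, Camk1d with rRNA processing by 0.28 and Camk1d with S phase by 0.21.

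**Figure D5:**
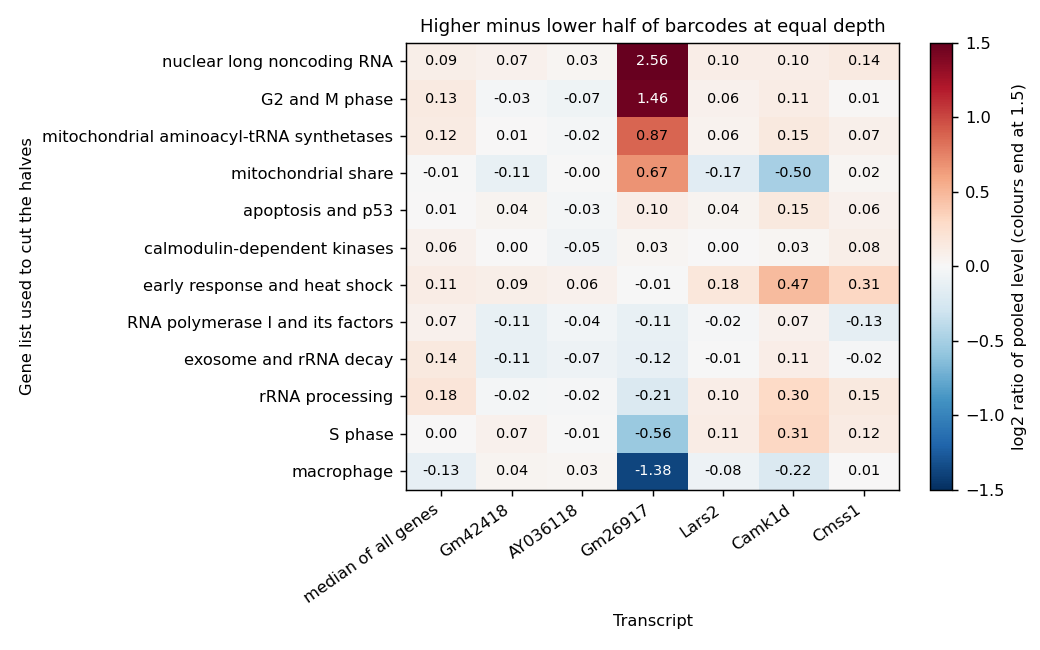
Log2 difference of each transcript between the 2 groups of barcodes with a higher and a lower level of each list, at equal depth (colours end at 1.5). Gm26917 stands apart, with 2.56 for nuclear long noncoding RNA and -1.38 for macrophage transcripts, whereas Gm42418 and AY036118 stay near 0 in these main values. Under other settings Gm42418 went as low as -0.44.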

How the data were processed

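The deposited matrix holds whole-number counts per gene and barcode, not normalized, and was written by PISA 0.12, per the file headers. Cell Ranger and mm10 are named with no role, per the submitters' processing notes. The sources used here do not state aligner settings, annotation, strand or whether molecules or reads were counted. If they are of reads, the intervals are too narrow.

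All 6837 barcodes were used, and 0 were filtered in the main values. Doublets were not called. Shares are of all counts. Contrasts are log2 ratios of pooled CPM of other counts, meaning all counts outside the members, without a pseudocount. Only the gene ranks and backgrounds by the number in the barcode name had a pseudocount of 1. Poisson and Clopper-Pearson intervals (95%) cover counting error only. Steps were tested on simulated data. Tools were numpy 2.4.6, pandas 2.3.3, scipy 1.17.1 and blastn 2.17.0.

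The members and lists were chosen with earlier results of these data known. Named genes are the members, the 3 genes nearest to each, and the highest of each list. Filip1l, Gm15564 and CT010467.1 were named for their position or sequence. A search of the genome was planned, but transcripts of GENCODE M21 were searched in its place.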

Additional observations from a re-analysis of the deposited data

How the results depend on the processing

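No paired analysis was possible because each group has 1 sample and the barcodes name none. Values below follow the main ones of 6.86% for the summed share, 1.04 for the log2 difference by depth, -0.10 for that by mitochondrial share, and 0.50 for the median rho over the 15 pairs. With 500 genes or more and at most 15% mitochondrial counts they were 6.81%, 0.72 and -0.12. With at least 5000 counts they were 6.81%, 0.84 and -0.12, with a median rho of 0.55. With members in the denominator, depth gave 0.32, mitochondrial share -0.16 and rho 0.47. Thinned to 1900 counts, they were 7.69%, 0.84, -0.10 and 0.37. Without ribosomal protein genes in the denominator the share was 10.1%. The 5 members other than Gm42418 gave 1.15%, 0.96 and -0.0227. Groups of 10% in place of 20% gave 1.33 by depth, and depth not held equal gave -0.16 by mitochondrial share. The median rank correlation was 0.54 within depth bins, and Pearson's r was 0.60. The last 3 settings were added after seeing the data. Number 1 in the name gave 5.27%, 1.001, -0.0796 and 0.36, and 2 or more gave 7.46%, 1.51, -0.0542 and 0.59. Without the 365 barcodes over 20%, the values were 6.40%, -0.32, -0.0437 and 0.42, and by depth Gm42418 was at -0.37, Camk1d at -0.0764 and Cmss1 at -0.12. Lists with a summed difference of 0.3 or more numbered 0, but 1 with members in the denominator and 2 when thinned. Over 7 alternatives the summed level ranged from -0.42 to 0.05 for calmodulin-dependent kinases and from -0.41 to 0.05 for mitochondrial aminoacyl-tRNA synthetases. For RNA polymerase I and its factors it ranged from -0.35 to 0.02. Gm26917 turned sign by mitochondrial share with at least 5000 counts (-0.21) and without the 365 barcodes (-0.28), and by S phase from -0.56 to 0.25 when thinned. The cause was not tested. For the summed level, changes of 2-fold by depth are lost under 500 genes and 15%, with at least 5000 counts, members in the denominator, thinning and the 5 members. Under the first 3 of these settings Camk1d and Gm26917 kept a log2 difference of 1.19 or more. The members matched by rRNA numbered 2 at all 4 limits. What was called reversed was settled after a first run: only values past the threshold count.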
